A study of Homo sapiens with 12 samples.

Results

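The comparison described here set LNCaP cells transfected with LSD1 that lacks the microexon 8a against LNCaP cells transfected with empty vector. Members were chosen by label: the 3 LSD1 libraries and the 3 empty-vector libraries, 6 of the 12 libraries in the study, compared across all 13001 genes of the deposited count table. LNCaP (clone FGC) is an established, androgen-responsive human cell line that came from a lymph node metastasis of prostate cancer. All 4 transfection groups (empty vector, LSD1, LSD1+8a and SRRM4, 3 libraries each) used cells at passage 8 in RPMI 1640 with serum, transient lipofection with Lipofectamine, a medium change after 6 hours, Trizol extraction and TruSeq libraries from polyA RNA. The empty-vector cells carried the same transfection reagent as the LSD1 cells, and an untransfected culture was not analysed here. Transfection was transient and no selection is named, so a library may mix cells with and without plasmid, and a small difference in all cells cannot be told apart from a larger one in some. The study's title concerns the splicing of LSD1+8a by SRRM4 in neuroendocrine prostate cancer. The LSD1 group asks what the form without the microexon does on its own, apart from the microexon. Whether replicate libraries were separate cultures or transfections is not in the labels. The p-values therefore rest on library-to-library spread that may be technical.

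LSD1, the product of KDM1A, is a nuclear enzyme that removes methyl groups from lysines of histone H3. It works with the CoREST and histone deacetylase proteins, mostly as a repressor of transcription. Neurons and neuroendocrine tumour cells splice a short exon, 8a, into the transcript, and SRRM4 is the neural splicing factor that favours its inclusion. The transfected form studied here is the one that non-neural cells make.

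The count table gives 1 value per gene, so it does not separate the forms with and without the microexon, nor plasmid transcripts from those of the cell's own gene.

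The libraries held 12750609 to 13570740 counts in the empty-vector group, 11658730 to 12565335 in the LSD1 group, 12110101 to 13359671 in the LSD1+8a group and 10876293 to 11485489 in the SRRM4 group. A luminal prostate gene that marks LNCaP was present in both groups: KLK3, which encodes prostate-specific antigen, had a mean of 3139 TPM with empty vector and 3352 TPM with LSD1. Among markers of other cell types, the table held 6 of 16 listed for basal epithelium and 8 of 27 for fibroblasts and other mesenchyme. It held 2 of 23 for leukocytes and endothelium and 4 of 17 for embryonic kidney. These markers gave 0 calls in LSD1 against empty vector, where 0.0462% of all genes were called higher and 0.0538% lower. The keratin gene KRT14 averaged 2.23 TPM with empty vector and 2.82 TPM with LSD1, the collagen genes COL1A1 8.60 and 8.68 TPM and COL3A1 0.647 and 0.867 TPM, and the endothelial gene VWF 3.53 and 3.76 TPM. KRT5, TP63, PTPRC, PECAM1, DCN, PAX2, SIX2 and WT1 were not among the genes of the table.

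KDM1A, the gene on the plasmid, checks the labels. Its normalised level in CPM (counts scaled to a common library size) was 94.0, 95.2 and 93.7 in the empty-vector libraries and 515, 587 and 519 CPM in the LSD1 libraries. The groups were far apart, with little spread in either. KDM1A was 5.72-fold higher with LSD1 (log2 fold change 2.52, SE 0.11, adjusted p = 8.55e-05). In the SRRM4 libraries, which received no KDM1A plasmid, the level was 96.3 ± 4.06 CPM (SD, n = 3), near that of empty vector. In the LSD1+8a libraries it was 2268 ± 316 CPM (SD, n = 3), 4.20-fold above the LSD1 libraries (adjusted p = 1.54e-05). A difference between LSD1+8a and LSD1 libraries therefore carries a difference in KDM1A level along with the microexon, and the contributions cannot be told apart in this design.

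Beyond KDM1A the LSD1 libraries differed little from empty vector. At an adjusted p under 0.05, 6 genes were higher (0.0462% of genes tested) and 7 were lower (0.0538%), together 13 genes. With shares this low, a gene list without a call is near the background and is no result about that list. The genes that were higher were KDM1A, the interferon-stimulated genes ISG15, IFI6 and IFI27, the noncoding RNA gene BCYRN1 and RP11-514P8.6, a clone-named gene that is named here after its values were seen. The genes that were lower were all encoded by the mitochondrial genome: MT-ND1, MT-ND2, MT-ND4, MT-ND5, MT-ND6, MT-CO1 and MT-CYB. Only KDM1A and RP11-514P8.6 passed 2-fold, and only these were called when edgeR tested against a 1.2-fold change in place of none. The median log2 fold change over all genes was 0.0019. By the same fit SRRM4 differed from LSD1 in 916 genes (7.05%) and LSD1+8a differed from LSD1 in 42 genes (0.323%).

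**Figure D1:**
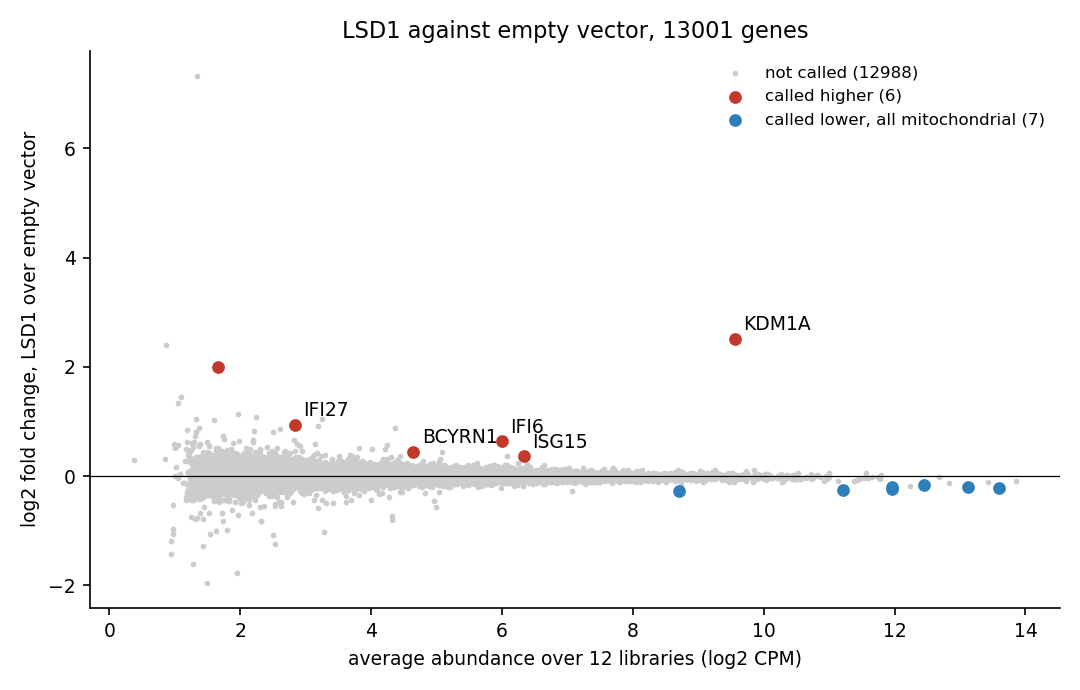
Each point is a gene, with its average abundance over the 12 libraries (log2 CPM) on the horizontal axis and its log2 fold change, LSD1 over empty vector, on the vertical axis. Red points (6) were called higher and blue points (7, all mitochondrial) were called lower at an adjusted p under 0.05, the unlabelled red point is RP11-514P8.6, and the highest grey point is a gene without counts in any empty-vector library, whose fitted value depends on the prior count.

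Interferons are secreted signals of virus infection. Cells that sense them activate a transcription factor complex that includes IRF9, and this complex binds the interferon-stimulated response element (ISRE) in the promoters of many antiviral genes. The promoters of the 3 called genes are shown because they share the core of that element. Each stretch is from RefSeq (GRCh38.p14) and covers bases 170 to 71 before the annotated transcription start, read 5′ to 3′ along the gene. Capitals mark every match to GAAANNGAAA or its reverse complement TTTCNNTTTC, with N standing for any base, and overlapping matches run together.
ISG15, chr1:1013327-1013426, plus strand: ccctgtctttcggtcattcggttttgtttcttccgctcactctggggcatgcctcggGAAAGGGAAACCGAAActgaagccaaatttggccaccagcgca
IFI6, chr1:27672263-27672362, minus strand: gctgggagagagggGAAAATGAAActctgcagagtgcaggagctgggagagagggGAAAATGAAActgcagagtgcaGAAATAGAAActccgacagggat
IFI27, chr14:94110566-94110665, plus strand: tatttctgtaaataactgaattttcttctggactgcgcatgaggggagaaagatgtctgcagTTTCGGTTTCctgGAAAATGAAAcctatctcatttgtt
The ISG15 and IFI27 stretches each hold 2 matches and the IFI6 stretch holds 3. In the 250 bases before the start, the motif was found in 201 of the 9040 measured genes that matched a promoter by symbol (2.22%) and in 23 of the 45 matched genes of the interferon list (51.1%). A match describes the letters of the window and is not evidence of binding in these cells.

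ISG15 is induced by interferon and encodes a ubiquitin-like protein that is attached to other proteins. Its level was 48.0, 49.5 and 50.7 CPM with empty vector and 62.2, 65.1 and 62.9 CPM with LSD1. Every LSD1 library stood above every empty-vector library. The difference was 1.28-fold (log2 fold change 0.36, SE 0.05, adjusted p = 8.55e-05). IFI6 encodes a small hydrophobic membrane protein of the antiviral response. It measured 31.8, 34.7 and 40.9 CPM with empty vector and 57.6, 59.5 and 50.8 CPM with LSD1, without overlap (1.56-fold, log2 fold change 0.64, SE 0.08, adjusted p = 0.00217). IFI27, a related interferon-induced gene, was rarer. It measured 2.92, 2.61 and 2.51 CPM with empty vector and 4.94, 5.11 and 5.40 CPM with LSD1. This was the largest fold of the 3 (1.92-fold, log2 fold change 0.94, SE 0.17, adjusted p = 0.00277). Without empty-vector replicate 2 the adjusted p of IFI6 was 0.0567, and without LSD1 replicate 3 that of IFI27 was 0.0510. ISG15 stayed under 0.05 with each of the 6 libraries left out in turn.

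The levels of these 3 genes were higher still in the other transfections. ISG15 averaged 49.4 ± 1.35 CPM for empty vector, 63.4 ± 1.54 for LSD1, 107 ± 4.10 for LSD1+8a and 103 ± 0.982 for SRRM4 (SD, n = 3 each). It was 1.69-fold higher with LSD1+8a than with LSD1 (adjusted p = 1.62e-14) and 1.63-fold higher with SRRM4 than with LSD1 (adjusted p = 3.09e-14). IFI6 was 1.69-fold higher with LSD1+8a than with LSD1 (adjusted p = 1.54e-05) and 1.26-fold higher with SRRM4 (adjusted p = 0.0140). IFI27 was 2.46-fold higher with LSD1+8a than with LSD1 (adjusted p = 3.11e-08) and 1.46-fold higher with SRRM4 (adjusted p = 0.0141). LSD1 thus lay between empty vector and both other transfections for all 3. SRRM4 libraries, with KDM1A near the empty-vector level, also stood above LSD1.

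**Figure D2:**
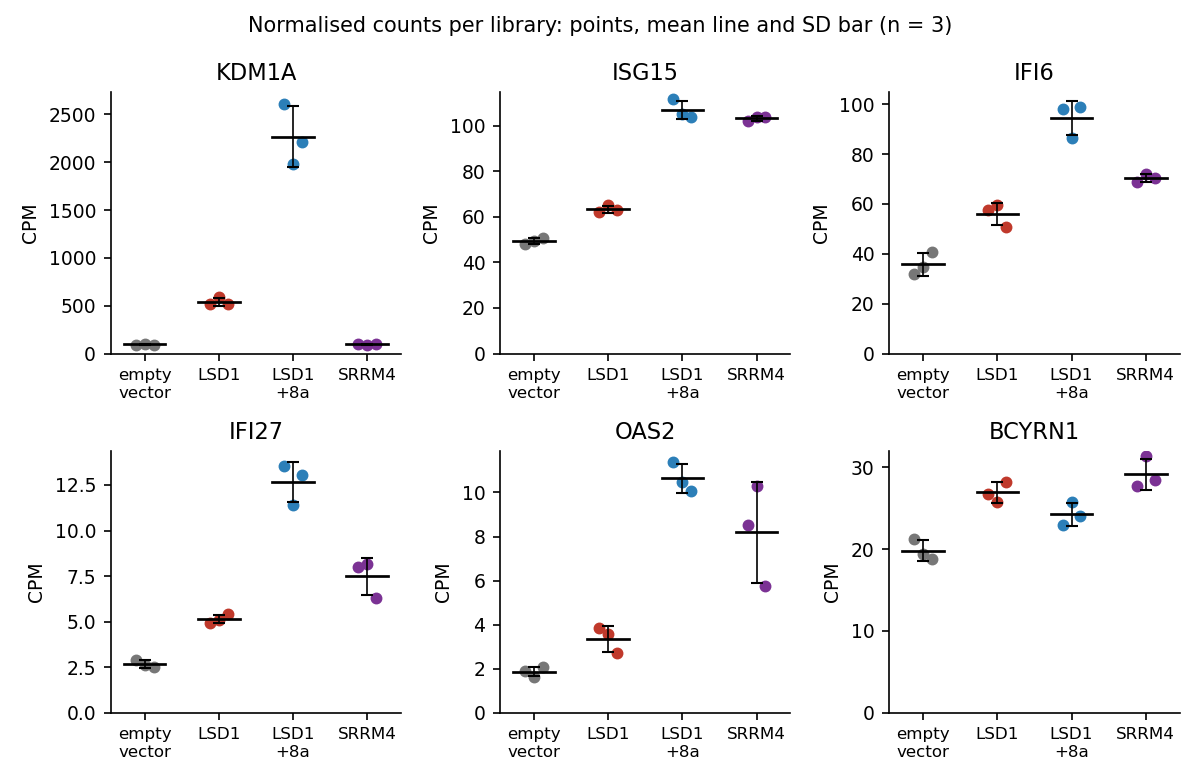
Normalised counts (CPM, linear axis from 0) of KDM1A, ISG15, IFI6, IFI27, OAS2 and BCYRN1 in each of the 12 libraries, with points for libraries, a line for the mean and a bar for the SD of 3 libraries per group. LSD1 lies between empty vector and both LSD1+8a and SRRM4 for ISG15, IFI6 and IFI27, while KDM1A is raised with LSD1 and LSD1+8a and stays near the empty-vector level with SRRM4.

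No further gene of the interferon effector list passed the adjusted threshold. Of 69 listed effector genes 59 were measured: 3 were higher with LSD1, 0 were lower and 56 were not called. At an unadjusted p under 0.05, 18 were higher and 1 was lower, where 3.09% of all genes were higher and 2.80% lower. The 3 LSD1 libraries all stood above the 3 empty-vector libraries for 17 of the 59 and all below for 2, against 5.48% and 6.21% of all genes. The list's median log2 fold change was 0.061, beside 0.0019 over all genes. The summed level of the 59 genes was 2171 to 2211 CPM with empty vector and 2238 to 2318 CPM with LSD1.

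OASL, an OAS-family protein and the member next by p, measured 6.95, 4.70 and 6.32 CPM with empty vector and 7.50, 9.20 and 8.95 CPM with LSD1 (log2 fold change 0.51, SE 0.13, adjusted p = 0.235). The further members in this paragraph are named after their values were seen. OAS2, a synthetase that senses double-stranded RNA, measured 1.89, 1.64 and 2.05 CPM with empty vector and 3.83, 3.58 and 2.70 CPM with LSD1 (log2 fold change 0.85, SE 0.22, adjusted p = 0.295). IFITM1, which blocks virus entry, had a log2 fold change of 0.59 (SE 0.16, adjusted p = 0.347). IFIT1, which binds viral RNA ends, had 0.57 (SE 0.18, adjusted p = 0.645), and OAS1 had 0.43 (SE 0.14, adjusted p = 0.640). SP100, a nuclear body protein, lay on the other side at 16.9, 18.3 and 19.4 CPM with empty vector and 15.1, 13.5 and 15.2 CPM with LSD1 (log2 fold change -0.32, SE 0.09, adjusted p = 0.344). Strongly inducible members such as RSAD2 (log2 fold change 0.32, SE 0.20) and IFIT3 (0.23, SE 0.17) were also short of the threshold.

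With LSD1+8a and SRRM4 the same list gave other counts. Of the 59 genes, 23 were higher with LSD1+8a than with LSD1 and 28 were higher with SRRM4 than with LSD1, and 0 were lower in either (0.208% and 4.38% of all genes were higher in these comparisons). On TPM these counts were 15 and 11 with a pseudocount of 1 and 13 and 10 with 0.1, and a test against a 1.2-fold change gave 15 and 11. IFIT3 was 3.53-fold higher with LSD1+8a than with LSD1 (adjusted p = 1.09e-11), and RSAD2 was 6.19-fold higher with SRRM4 than with LSD1 (adjusted p = 1.90e-15). Against empty vector, whose libraries all 3 comparisons share, the list's median log2 fold change was 0.061 for LSD1, 0.366 for LSD1+8a and 0.256 for SRRM4.

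**Figure D3:**
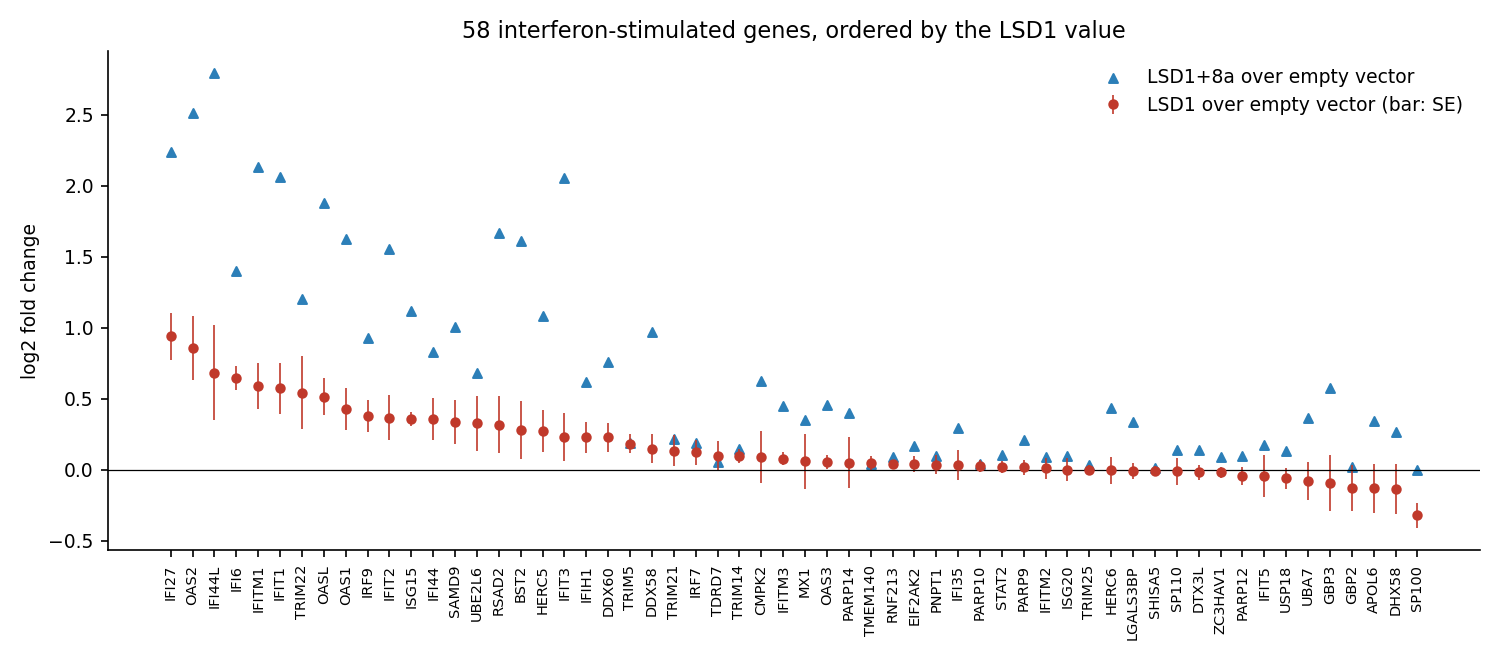
Log2 fold changes over empty vector of 58 of the 59 measured interferon-stimulated genes, ordered by the LSD1 value (red circles, bars are SE), with the LSD1+8a value of each gene as a blue triangle. The red values run from 0.94 for IFI27 to -0.32 for SP100 and most lie near 0, and the same empty-vector libraries enter both comparisons.

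Genes that sense viral nucleic acid or carry the interferon signal were measured as 37 of 45 listed, and 0 were called. That is near the shares of all genes called (0.0462% higher, 0.0538% lower). Their median log2 fold change was 0.014. IRF9, the DNA-binding subunit of the interferon-activated complex, is also on the effector list. It measured 8.13, 8.94 and 10.0 CPM with empty vector and 11.6, 12.3 and 11.4 CPM with LSD1 (log2 fold change 0.38, SE 0.11, adjusted p = 0.384). IFNAR1, a receptor chain for type I interferon, had a log2 fold change of 0.15 (SE 0.05, adjusted p = 0.645). The RNA sensor IFIH1 had 0.23 (SE 0.11, adjusted p = 0.817) and TLR3 had 0.34 (SE 0.18, adjusted p = 0.867).

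The genes that were lower with LSD1 belong to the mitochondrial genome. That circular DNA is transcribed as long precursors that are cut into the messages of respiratory-chain subunits and the ribosomal RNAs of the mitochondrion. All 15 listed mitochondrial genes were measured: 7 were lower, 0 were higher and 8 were not called. The 3 LSD1 libraries all lay below the 3 empty-vector libraries for 12 of the 15, against 6.21% of all genes. The median log2 fold change of the 15 was -0.173.

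MT-ND1, a core subunit of complex I, measured 4247, 4543 and 4432 CPM with empty vector and 3852, 3750 and 3655 CPM with LSD1. The groups did not overlap (log2 fold change -0.23, SE 0.03, adjusted p = 2.25e-04). MT-CO1, the catalytic subunit of cytochrome c oxidase, measured 14193, 13537 and 13261 CPM with empty vector and 11982, 12223 and 11121 CPM with LSD1 (log2 fold change -0.21, SE 0.03, adjusted p = 0.00116). MT-ND6, another complex I subunit, measured 475, 467 and 476 CPM with empty vector and 394, 402 and 383 CPM with LSD1. Its log2 fold change of -0.27 (SE 0.04, adjusted p = 0.00246) was the lowest of the 15. MT-ND6 lies on the strand opposite most other mitochondrial genes. The sources used here do not state whether counting used strand, so its reads cannot be told apart from those of transcripts of the other strand.

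The remaining called members were complex I subunits MT-ND2 (log2 fold change -0.19, adjusted p = 0.00217), MT-ND5 (-0.25, adjusted p = 0.00537) and MT-ND4 (-0.20, adjusted p = 0.0241), and the cytochrome b gene MT-CYB (-0.16, adjusted p = 0.0303). Below the threshold were MT-CO2 (-0.18, adjusted p = 0.0674) and MT-CO3 (-0.12, adjusted p = 0.295), both cytochrome c oxidase subunits. The ATP synthase genes MT-ATP6 (-0.17) and MT-ATP8 (-0.17) and the large ribosomal RNA MT-RNR2 (-0.11) were not called either. This split depended on the method. DESeq2 and limma-voom each called MT-CO3 and MT-RNR2 lower, and edgeR with only the 2 groups fitted called MT-CO2, MT-ATP6 and MT-ATP8. MT-RNR1 (-0.04), MT-ND4L (-0.04) and MT-ND3 (0.06) were the members whose LSD1 libraries overlapped those of empty vector.

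**Figure D4:**
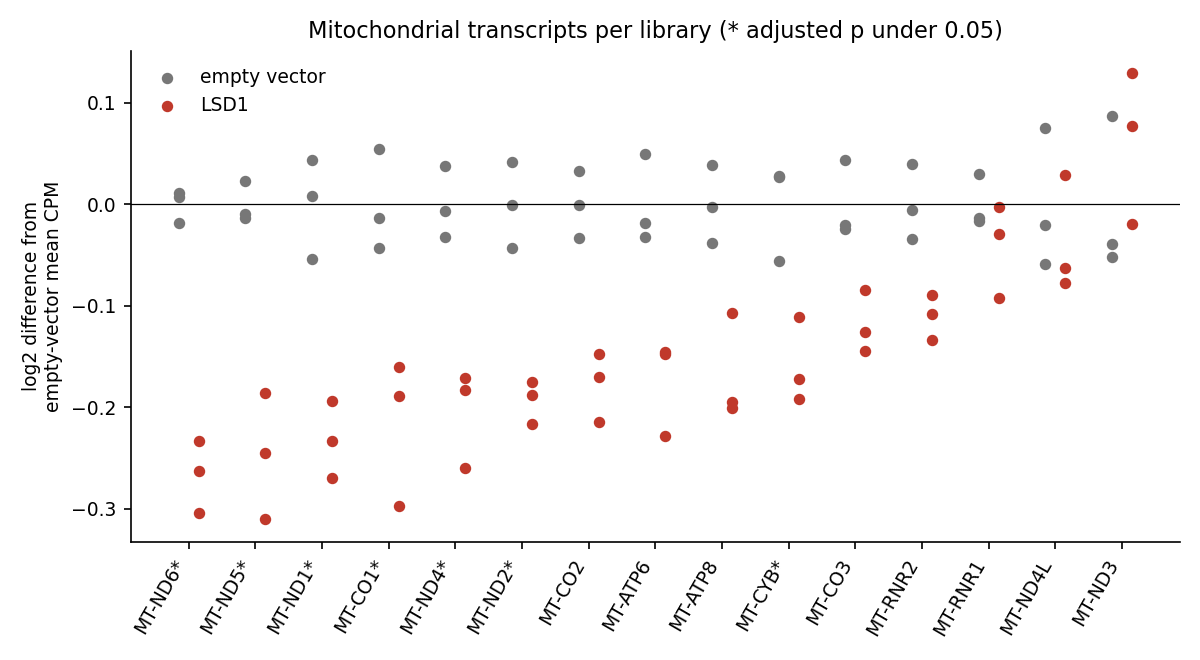
Each point is a library's log2 difference from the empty-vector mean CPM for 15 mitochondrial genes, grey for empty vector and red for LSD1, ordered by the fitted fold change, with an asterisk for an adjusted p under 0.05. All 3 red points lie below all 3 grey points in 12 of the 15 genes, the exceptions being MT-RNR1, MT-ND4L and MT-ND3.

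Summed over the 15 genes, mitochondrial transcripts took 7.29% ± 0.10 of all counts with empty vector and 6.56% ± 0.155 with LSD1 (SD, n = 3 each). The difference of -0.726 percentage points had an exact two-sided permutation p of 0.1, the smallest that 3 libraries against 3 can give. The share was 6.82% ± 0.256 with LSD1+8a and 6.75% ± 0.131 with SRRM4, so each of the 3 groups given a gene had a lower mean than empty vector. SRRM4 over empty vector also called MT-ND1 (log2 fold change -0.23), MT-ND6 (-0.27), MT-ND5 (-0.27), MT-ND2 (-0.20), MT-CO1 (-0.19) and MT-ND4 (-0.15) lower. MT-CYB (-0.09, adjusted p = 0.0731) was not called. MT-CO2 (-0.12) and MT-CO3 (-0.10) were lower there and MT-RNR1 (0.22) was higher. Of all 13001 genes 418 were lower in that comparison and 581 higher. LSD1+8a over empty vector called MT-CO1 alone of the 7 (-0.21, adjusted p = 3.83e-04). Of the 15 genes 0 differed between LSD1+8a and LSD1 by the edgeR test, either way, near the 0.323% of all genes called there. That 0 does not show whether the mitochondrial level differs between the LSD1 forms. MT-RNR1 (log2 fold change 0.26) and MT-RNR2 (0.10) were higher with SRRM4 than with LSD1, where 4.38% of all genes were higher. The mitochondrial calls of LSD1 against empty vector rested on small differences. With LSD1 replicate 3 left out only MT-ND1 of the 7 stayed under 0.05, with empty-vector replicate 3 left out 2 did and with empty-vector replicate 2 left out 4 did. On the TPM values (limma-trend, pseudocount 1) only MT-ND1 did (log2 fold change -0.21, adjusted p = 0.0285).

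Genes for respiratory-chain subunits that are encoded in the nucleus gave 0 calls among 77 measured, near the shares of all genes called (0.0462% higher, 0.0538% lower). Their median log2 fold change was 0.011, with a range of -0.11 to 0.14. The complex I subunit NDUFB11 was at -0.11 (SE 0.04, adjusted p = 0.661), and NDUFS7 at 0.13 and NDUFB8 at 0.14, also of complex I, lay on the other side. The 79 cytosolic ribosomal protein genes, abundant transcripts of nuclear genes, had a median of -0.010 with 0 calls, RPS24 (-0.10, adjusted p = 0.567) and RPL41 (-0.10, adjusted p = 0.587) having the smallest p. EEF1A1, the abundant translation elongation factor gene, measured 15448, 15968 and 15475 CPM with empty vector and 14915, 14635 and 14421 CPM with LSD1, without overlap and short of the edgeR threshold (log2 fold change -0.09, SE 0.03, adjusted p = 0.587). It was lower past the threshold by DESeq2 (adjusted p = 0.00978) and limma-voom (adjusted p = 0.0351), the same direction as the mitochondrial calls. It was singled out after its values were seen. The median log2 fold change was 0.023 in the 971 genes with an average under 2 log2 CPM. It was -0.034 in the 86 genes above 10 log2 CPM, the class that held 6 of the 7 mitochondrial calls. All mitochondrial genes but MT-ND6, MT-ND3 and MT-ATP8 are among those 86 genes and enter that median. The part of abundance in those calls was not tested.

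BCYRN1, a short noncoding RNA gene of Alu origin that is known from neurons and tumours, measured 21.3, 19.4 and 18.8 CPM with empty vector and 26.8, 25.8 and 28.3 CPM with LSD1. The groups did not overlap (1.36-fold, log2 fold change 0.44, SE 0.08, adjusted p = 0.00217). Its reads can be shared with related Alu sequences, so the value is uncertain as a measure of this gene. RP11-514P8.6 measured 1.11, 1.42 and 1.14 CPM with empty vector and 4.55, 4.26 and 5.91 CPM with LSD1 (3.98-fold, log2 fold change 1.99, SE 0.26, adjusted p = 1.24e-04). BCYRN1 did not differ between LSD1+8a and LSD1 past the threshold (adjusted p = 0.795), nor did RP11-514P8.6 (adjusted p = 0.683). With SRRM4 RP11-514P8.6 was 0.523-fold of its LSD1 level (adjusted p = 0.0133), and BCYRN1 was 1.08-fold (adjusted p = 0.405). On the TPM values neither gene passed (adjusted p = 0.605 and 0.0913), and without LSD1 replicate 3 the adjusted p of BCYRN1 was 0.0512.

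Genes for the proteins that work with LSD1 gave no call at an adjusted p under 0.05. The counts of 0 in this paragraph are near the shares of all genes called (0.0462% higher, 0.0538% lower). Of the 16 measured members of the LSD1 and CoREST complex list only KDM1A itself was called. The other members with the smallest p were ZMYM2 (log2 fold change 0.06, SE 0.04, adjusted p = 0.909), CTBP1 (0.04, SE 0.03), a corepressor, and RCOR1 (-0.06, SE 0.05), the CoREST scaffold that holds LSD1 on chromatin. Of the 12 NuRD genes, which encode a remodelling and deacetylase complex that can hold LSD1, 0 were called (median -0.012). CDK2AP1 stood at 58.3, 62.5 and 58.1 CPM with empty vector and 64.0, 70.0 and 67.9 CPM with LSD1 (log2 fold change 0.17, SE 0.05, adjusted p = 0.384), and GATAD2B (-0.11), CHD4 (-0.07) and CHD3 (-0.05) were on the other side of 0. Of 21 other histone demethylase genes 0 were called (median -0.036), with KDM5B (-0.08), PHF8 (-0.09), KDM6A (-0.06) and KDM3B (-0.07) having the smallest p. Of 28 histone genes 0 were called, with a median of 0.060. HIST1H2AG measured 5.68, 4.92 and 5.02 CPM with empty vector and 6.54, 6.73 and 7.51 CPM with LSD1 (log2 fold change 0.41, SE 0.14, adjusted p = 0.609). Other histone members were H2AFY2 (-0.12), HIST1H2BK (0.09) and HIST1H4H (0.16).

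Genes of the androgen programme showed no call with LSD1, near the shares of all genes called (0.0462% higher, 0.0538% lower). Of 45 measured genes of the androgen-induced list 0 were called either way, the median log2 fold change was 0.003, and values ran from -0.20 to 0.16. ACPP, the prostatic acid phosphatase gene, measured 94.2, 90.9 and 94.4 CPM with empty vector and 82.4, 87.5 and 85.2 CPM with LSD1, without overlap and short of the threshold (log2 fold change -0.13, SE 0.04, adjusted p = 0.577). The kallikrein KLK2 had a log2 fold change of 0.09 (SE 0.03, adjusted p = 0.657), and AZGP1 had -0.20 (SE 0.08, adjusted p = 0.717). KLK3 was at 3088, 3189 and 3094 CPM with empty vector and 3366, 3216 and 3160 CPM with LSD1 (log2 fold change 0.06, SE 0.03, adjusted p = 0.867). SRRM4 libraries had 16 of these 45 genes lower than LSD1 libraries (2.67% of all genes were lower), KLK3 among them (0.819-fold, adjusted p = 1.97e-08). That count was 6 on TPM, 1 in a test against a 1.2-fold change and 10 without LSD1 replicate 2.

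Neuroendocrine and neural genes likewise gave 0 calls with LSD1, near the shares of all genes called (0.0462% higher, 0.0538% lower). Only 12 of 48 listed neuroendocrine markers were among the genes of the table, with a median of 0.002. Those with the smallest p were the mitotic kinase gene AURKA (log2 fold change 0.08, SE 0.06, adjusted p = 0.914), the neuronal regulator HES6 (0.06), DDC (-0.04), which makes dopamine and serotonin, and the prohormone-processing gene CPE (-0.03). CHGA and INSM1 were not among the genes of the table. REST is the repressor that silences neuronal genes outside the nervous system, through CoREST and LSD1. Of 27 measured genes of the REST list 0 were called and the median log2 fold change was -0.024. REST itself, which is on that list, measured 54.7, 49.5 and 49.5 CPM with empty vector and 46.9, 49.4 and 46.2 CPM with LSD1 (-0.11, SE 0.06, adjusted p = 0.842). CPLX1, of synaptic vesicle release, had 0.24 (SE 0.10, adjusted p = 0.774), SEZ6L2 had -0.08 and the glutamate receptor gene GRIN1 had 0.18. By the same fit 16 of the 27 were higher with SRRM4 than with LSD1, where 4.38% of all genes were higher. With LSD1+8a 0 were higher than with LSD1, near the 0.208% of all genes that were higher there. CPLX1 was 1.63-fold higher with SRRM4 than with LSD1 (adjusted p = 2.06e-06).

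Of 24 measured splicing regulators of neural and muscle exons 0 were called, near the shares of all genes called (0.0462% higher, 0.0538% lower). KHDRBS3, an RNA-binding splicing factor, came nearest at 7.50, 7.90 and 7.0 CPM with empty vector and 4.55, 5.45 and 5.32 CPM with LSD1. All its LSD1 libraries were below all its empty-vector libraries, and the test fell short (log2 fold change -0.55, SE 0.14, adjusted p = 0.235). ZRSR2 (0.32), MBNL3 (0.18) and MBNL1 (0.07) followed by p.

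The hypoxia and glycolysis list had 0 calls with LSD1 among 46 measured genes, near the shares of all genes called (0.0462% higher, 0.0538% lower). At an unadjusted p under 0.05, 5 had a positive difference and 0 a negative one. Of all genes 3.09% and 2.80% did, so the 0 is near the background. Of the 46, 36 had a log2 fold change above 0, where 51.1% of all genes did, and the median was 0.053. PFKFB4, which makes the main activator of glycolysis, measured 36.4, 31.5 and 30.3 CPM with empty vector and 40.8, 36.0 and 39.7 CPM with LSD1. Empty-vector replicate 1 overlapped the LSD1 range (log2 fold change 0.25, SE 0.08, adjusted p = 0.518). The hexokinase gene HK2 had 0.14 (SE 0.05, adjusted p = 0.645), ERO1L, of protein folding, had 0.21 (SE 0.08, adjusted p = 0.729), and MIR210HG, the host transcript of a hypoxia-induced microRNA, had 0.27 (SE 0.12, adjusted p = 0.782).

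Members of this list differed between LSD1 and LSD1+8a. Of the 46, 8 were lower with LSD1+8a than with LSD1 (0.115% of all genes were lower), and 9 were lower and 2 higher with SRRM4 than with LSD1 (2.67% of all genes were lower and 4.38% higher, so the 2 higher are near the background). MIR210HG was 0.570-fold of its LSD1 level with LSD1+8a (10.7 ± 0.412 CPM with LSD1, 6.10 ± 0.625 with LSD1+8a, SD, n = 3 each, adjusted p = 1.44e-04), with 8.86 ± 1.10 CPM for empty vector between them. PFKFB4 averaged 32.7 ± 3.24 CPM with empty vector, 38.8 ± 2.49 with LSD1 and 29.04 ± 3.28 with LSD1+8a (0.749-fold of LSD1, adjusted p = 0.00606). HK2 was 0.866-fold of its LSD1 level (adjusted p = 0.0424). The other 5 were the oxygen sensor gene EGLN1 (0.816-fold, adjusted p = 0.00772), the glucose transporter gene SLC2A1 (0.849-fold, adjusted p = 0.0129), the histone demethylase gene KDM3A (0.781-fold, adjusted p = 7.89e-04), PPFIA4 (0.591-fold, adjusted p = 0.0424) and ZNF395 (0.808-fold, adjusted p = 0.00657). Against empty vector with LSD1 these 5 had log2 fold changes of 0.11, 0.04, 0.05, 0.28 and -0.03, in the order named. With LSD1+8a against empty vector they had -0.18, -0.19, -0.31, -0.48 and -0.34. KDM3A (adjusted p = 0.00483), ZNF395 (9.17e-04) and MIR210HG (-0.54, adjusted p = 0.0457) were called lower there, among 8 of all 13001 genes. Most of the 8 calls of this list between LSD1+8a and LSD1 depended on the test and on single libraries. Of the 8, DESeq2 kept 6, and the TPM values or a test against a 1.2-fold change kept MIR210HG alone. Without LSD1 replicate 1 the calls were EGLN1, KDM3A and MIR210HG, without LSD1 replicate 2 they numbered 5, and without LSD1+8a replicate 3 they numbered 4. MIR210HG and KDM3A stayed called with any 1 of the 6 LSD1 and LSD1+8a libraries left out. Of the 9 genes lower with SRRM4, 5 were left without SRRM4 replicate 2. On TPM 1 gene was lower with SRRM4, and none of the 11 calls was kept there or in the test against a 1.2-fold change. The calls between LSD1+8a and LSD1 carry the 4.20-fold difference in KDM1A level given above.

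**Figure D5:**
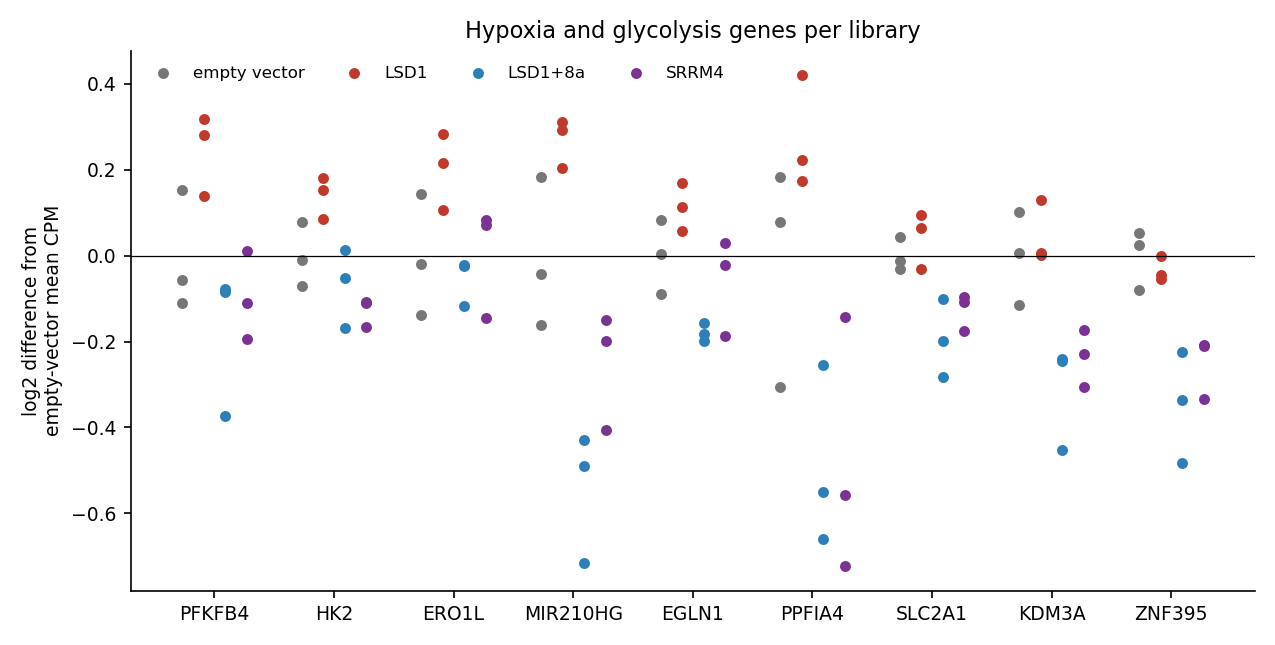
Each point is a library's log2 difference from the empty-vector mean CPM for 9 genes of the hypoxia and glycolysis list, in 4 colours for the transfection groups (3 libraries each). The LSD1 mean lies above the empty-vector mean for every gene but ZNF395 without passing the test. All genes shown but ERO1L were lower with LSD1+8a than with LSD1 at an adjusted p under 0.05. They are the 8 such genes of the 46 measured (0.115% of all genes were lower). EGLN1, PPFIA4, SLC2A1, KDM3A and ZNF395 are shown because of that call, so the share among the 9 genes follows from the choice.

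The p53, heat shock and lipid synthesis lists gave 0 calls with LSD1, near the shares of all genes called (0.0462% higher, 0.0538% lower). Of 46 measured p53 targets 0 were called (median 0.028), among them GADD45B, a DNA damage response gene, at 5.37, 8.65 and 5.17 CPM with empty vector and 8.37, 8.52 and 9.71 CPM with LSD1. Empty-vector replicate 2 of GADD45B lay within the LSD1 range (log2 fold change 0.47, SE 0.16, adjusted p = 0.645), and without that library the adjusted p was 0.0349. MDM2, the p53 ubiquitin ligase gene, had 0.09 (SE 0.04, adjusted p = 0.804), CYFIP2 had -0.09 and DRAM1, of autophagy, had 0.22. With SRRM4, 27 of the 46 were higher than with LSD1 (4.38% of all genes were higher), MDM2 by 1.36-fold (adjusted p = 3.54e-10). That count was 13 on TPM and 11 in a test against a 1.2-fold change. Of 25 measured heat shock genes 0 were called (median -0.023), with the chaperone genes HSP90AB1 (-0.09, SE 0.03, adjusted p = 0.599), HSPA8 (-0.07), DNAJB6 (-0.10) and HSPD1 (-0.04) having the smallest p. Of 39 genes of cholesterol and fatty acid synthesis 0 were called (median 0.022). INSIG1, the sterol sensor partner, measured 64.5, 55.3 and 59.1 CPM with empty vector and 70.98, 68.3 and 65.8 CPM with LSD1 (log2 fold change 0.20, SE 0.05, adjusted p = 0.344), and MSMO1 (0.23), IDI1 (0.14) and DHCR7 (0.08), enzymes of cholesterol synthesis, followed.

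The authors' deposited table gives its own comparison of LSD1 with empty vector. In the authors' deposited table an adjusted p was given for 651 genes and left as NA for 12350. At an adjusted p under 0.05, the authors' deposited table has 1 gene higher (KDM1A, log2 fold change 2.52) and 18 lower, 10 of the 19 being mitochondrial, and 8 of the 19 were also called here. The other 8 lower genes of the authors' deposited table were EEF1A1 (-0.09), NPM1 (-0.11), GABARAP (-0.11), RP11-3P17.3 (-0.10), RPL41 (-0.10), HSP90AB1 (-0.09), EEF1G (-0.09) and PABPC1 (-0.08, log2 fold changes), and the edgeR test called 0 of them. For ISG15, IFI6 and IFI27 the authors' deposited table gives log2 fold changes of 0.36, 0.65 and 0.94 with NA as the adjusted p. Its NA therefore does not place them on either side of a threshold.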

How the data were processed

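RNA was measured in 12 libraries of transfected LNCaP cells. The authors deposited whole-number read counts per gene, TPM values, and a table with the log2 fold change of each transfection over empty vector, its p-value and its adjusted p, per the file headers; the name of that table carries DESeq2. STAR 2.5.3a, RSEM 1.2.31 and hg19 are listed in the submitters' processing notes without a role, and the step from reads to counts is not given in the sources used here. No coordinates come from these files. All 13001 genes were tested; the symbol SRRM4 is not among them, so its transcript was not analysed here.

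Counts were normalised with TMM, passed through filterByExpr (0 genes removed, smallest total 168 counts) and fitted in edgeR 4.0.16 (R 4.3.3) by robust quasi-likelihood in 1 model of 4 groups without a block. P-values were adjusted over all genes by Benjamini and Hochberg, with 0.05 as threshold, and SE is that of the log2 fold change. The biological coefficient of variation was 2.98%. Mitochondrial shares were compared by an exact permutation test. Alternatives were other scalings and filters, DESeq2 1.42.0, limma 3.58.1 on counts and on TPM (pseudocounts 1 and 0.1), a replicate block, and leaving out each library. The code was tested on simulated data. Library totals limit the precision of rare genes, and counts without molecular identifiers are not independent molecules.

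Named genes were KDM1A, the called genes, and up to 4 members with the smallest p of each list described; other names are said to have been chosen after their values were seen, including, in the hypoxia list, the 5 added members called between LSD1+8a and LSD1. Some items that this rule names are not reported here. The comparison and the 35 gene lists were chosen with earlier results of these data known. MT genes other than those named by this rule are given so that all 15 are accounted for.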

Additional observations from a re-analysis of the deposited data

How the results depend on the processing

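KDM1A stayed called under every alternative, with a log2 fold change of 2.45 to 2.55 when single libraries were left out. Of the 13 calls all were kept with RLE or upper-quartile factors, with KDM1A or the mitochondrial genes removed before scaling, with no or a stricter filter, with counts thinned to equal totals, and with only the 2 groups fitted, where 12 genes were lower. DESeq2 kept 12 and limma-voom 11. A test against a 1.2-fold change called 2 genes higher and 0 lower in LSD1 than empty vector, 17 higher and 1 lower in LSD1+8a than LSD1, and 83 higher and 4 lower in SRRM4 than LSD1. On TPM, with pseudocounts of 1 and 0.1, 1 gene was lower in LSD1 in both, 2 were lower in LSD1+8a than LSD1 in both, 17 were higher with 0.1, and SRRM4 over LSD1 gave 128 higher and 57 lower, or 123 and 55; the median of all genes was 0.031 and 0.033. DESeq2 called 7 genes lower in LSD1+8a than LSD1, and 325 higher and 174 lower in SRRM4. Leaving out single libraries gave 4 to 8 genes higher and 1 to 7 lower in LSD1 than empty vector, 23 to 29 higher and 6 to 16 lower in LSD1+8a than LSD1, and 329 to 461 higher and 159 to 287 lower in SRRM4 than LSD1. The causes of these changes were not tested. A lone pair left in a group was fitted with the spread of all groups.

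Same-numbered LSD1 and empty-vector libraries did not deviate together (r = -0.163, -0.087 and -0.087). These values do not show whether same-numbered libraries were prepared together, and the labels do not say. With the replicate block 6 genes were higher and 5 lower, MT-CYB and MT-ND4 no longer being called. Among named genes that were never called, the sign changed for MDM2 (-0.0132 and -0.0135 on TPM), CPE (0.0016 on both) and ZNF395 (0.0176 and 0.0184), and, over single libraries left out, for HES6 (-0.0065 to 0.110), KDM3A (-0.0049 to 0.101), MT-ND4L (-0.0704 to 0.0026) and DDC (-0.0941 to 0.0076). The removal of mitochondrial genes and the thinning were chosen after seeing the data.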

Other observations

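Just 1 of the genes, a clone-named gene singled out after its values were seen, had 0 counts in all 3 empty-vector libraries. It had 34, 13 and 12 counts in the LSD1 libraries, 0, 63 and 65 in the LSD1+8a libraries and 73, 33 and 53 in the SRRM4 libraries. LSD1 against empty vector did not pass the edgeR test in the fit of all 12 libraries (adjusted p = 0.862), and LSD1+8a replicate 1 was also at 0. With only the 2 groups fitted, the gene was called. No fold is given, because the fitted value depends on the prior count.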
